A study of Mus musculus with 6 samples.

Results

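The genes described here sense unfolded protein in the endoplasmic reticulum (ER), fold it, or send it to be degraded. The list held 38 genes in 4 roles: 10 sensors and regulators, 17 chaperones and folding enzymes, 8 degradation factors and 3 parts of the protein translocation channel. A gene was measured by an array row whose platform annotation named that gene and no other, and by the row with the highest mean over the 6 arrays where there were several. By this rule 37 of the 38 genes were measured, out of 22180 genes named on the array. Pdia4, which codes for a protein disulfide isomerase, was left out because its row also names the microRNA gene Mir704. The genes now called Ero1a and Ero1b are given under their listed names Ero1l and Ero1lb.

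RNA came from the epididymal fat pad (eWAT), a visceral white fat depot, of male C57BL/6 mice aged 8 months. Both groups had been on a high-fat diet for 21 weeks, so there was no lean group. The wild-type (WT) group and the group with an adipose-specific Blnc1 transgene (Tg) had 3 biological replicates each, called WT 1 to WT 3 and Tg 1 to Tg 3. Blnc1 is a long noncoding RNA studied in thermogenic fat. The labels name neither the promoter that drives the transgene nor a founder line. No array row carries the name Blnc1, and whether a row without a gene name detects the transgene was not checked. The comparison asks how the fat transcriptome of the transgenic mice differs from that of WT after long high-fat feeding.

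Secretory cells fold membrane and secreted proteins in the ER. When unfolded protein accumulates there, 3 membrane sensors respond. IRE1 (gene Ern1) splices the mRNA of the transcription factor XBP1. PERK (Eif2ak3) phosphorylates the initiation factor eIF2, which slows translation and favours that of ATF4. ATF6 is cut in the Golgi to release a transcription factor. Adipocytes secrete adipokines and matrix in bulk, and ER stress in obese fat is a long-studied subject. The arrays measure RNA levels. They show neither splicing of Xbp1, which has 1 row, nor phosphorylation of PERK or cleavage of ATF6.

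Promoters of the classic ATF6 and XBP1 target genes carry an ER stress response element, ERSE, which is CCAAT and CCACG with 9 free bases between them. A shorter form, ERSE-II, is ATTGG and CCACG with 1 free base between them. RefSeq promoter windows (build GRCm38.p6, 250 bases before to 50 after a gene's start) were at hand for 33 of the 38 genes, all but Atf6, Hyou1, Manf, Derl1 and Sec61a1. Both strands were searched. ERSE was found in 10 of the 33 genes (30.3%) and in 37 of all 27025 genes in the table (0.137%). Over promoter windows, of which a gene can have several, it stood in 0.119% of 32851. ERSE-II was found in 2 of the 33 genes, Dnajb11 and Herpud1, and in 0.0365% of all windows. The motifs share the letters CCACG, which the UPRE below holds on its other strand, and none of the 33 genes held both ERSE and ERSE-II. By role, 9 of 15 chaperone and folding genes and 3 of 7 degradation genes with a window held at least 1 of these elements, against 0 of 9 sensors and regulators and 0 of 2 translocation genes. Neither the XBP1 element UPRE (TGACGTGG, in 0.676% of all windows) nor the ATF4 element CARE (TGATGNAAT, in 0.965%) matched in the 33 genes. A match is a stretch of letters, not proof of binding, and a missing match covers this window only.

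The stretches with a match before the start are shown for the 8 chaperone or folding genes and 3 degradation genes below. The genes were listed as genes of the response, whose classic targets are known for this element. Its high share among them is therefore no independent result. Each runs 5′ to 3′ on the gene's strand, with the match in capitals. CGTGG at the left of the capitals means that the element lies on the opposite strand.
Hspa5 (chr2:34772010-34772058, + strand, match from 65 bases before the start): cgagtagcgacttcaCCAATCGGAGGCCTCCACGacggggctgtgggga
Hsp90b1 (chr10:86705518-86705671, - strand, matches from 212 and 107 bases before the start): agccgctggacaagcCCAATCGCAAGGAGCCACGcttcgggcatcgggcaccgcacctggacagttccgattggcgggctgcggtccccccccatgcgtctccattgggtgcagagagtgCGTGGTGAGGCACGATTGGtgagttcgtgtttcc
Calr (chr8:84847060-84847108, - strand, 162 bases before): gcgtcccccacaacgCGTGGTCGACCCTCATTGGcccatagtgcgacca
Canx (chr11:50325785-50325833, - strand, 145 bases before): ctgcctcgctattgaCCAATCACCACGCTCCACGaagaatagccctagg
Pdia6 (chr12:17266476-17266524, + strand, 98 bases before): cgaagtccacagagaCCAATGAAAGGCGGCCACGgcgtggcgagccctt
Dnajc3 (chr14:118937812-118937860, + strand, 105 bases before): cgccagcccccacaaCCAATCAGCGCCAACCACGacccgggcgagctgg
Creld2 (chr15:88819505-88819553, + strand, 126 bases before): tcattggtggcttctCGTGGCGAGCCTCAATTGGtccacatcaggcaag
Ero1lb (chr13:12565667-12565715, + strand, 201 bases before): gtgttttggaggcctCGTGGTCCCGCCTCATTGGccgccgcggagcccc
Syvn1 (chr19:6046517-6046565, + strand, 44 bases before): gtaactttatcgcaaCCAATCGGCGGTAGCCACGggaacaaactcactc
Derl3 (chr10:75893227-75893275, + strand, 156 bases before): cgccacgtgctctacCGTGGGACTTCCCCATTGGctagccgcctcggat
Herpud1, ERSE-II (chr8:94386362-94386402, + strand, 52 bases before): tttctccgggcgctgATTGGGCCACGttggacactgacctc
The element of Dnajb11 lies after the start and is not shown.

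Values are log2 intensities, and differences are Tg minus WT with the standard error (SE) of a limma fit over all 41345 rows. Adipocyte markers were well measured, with mean log2 levels of 9.24 to 9.53 in WT and 9.54 to 9.87 in Tg over 10 of 12 listed genes. Transcripts of the epididymis, which lies next to this fat pad, set single arrays apart. The mean of 16 epididymis markers was 5.95 in Tg 2 and 1.18 to 1.90 in the other 5 arrays. In WT 2 and WT 3 the epididymal gene Spink8 read 6.55 and 8.09, against 1.16 to 2.53 in the other 4. Results without Tg 2, or with the marker mean as a covariate, are given for some genes below, not for all that they move. That mean is set mostly by Tg 2, so the covariate hardly follows the signal in WT 2 and WT 3. With 3 arrays per group an exact permutation test cannot give a 2-sided p below 0.1. P-values measure the spread between these mice, and fewer cells of a type cannot be told apart from less RNA per cell.

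Small differences, mostly within the spread of the arrays, were found for this set. No gene passed the threshold of an adjusted p of 0.05 in limma (0 of 37, and 0 of all rows, 0%), and the smallest adjusted p was 0.37. At an unadjusted p under 0.05 there were 2 genes, Ern1 and Ero1lb, both lower in Tg. That is 5.4% of the set, against 10.3% of all rows (5.88% lower and 4.43% higher) and 9.82% of all named genes at 1 row each (4.51% lower and 5.31% higher). In 6 genes the 3 Tg arrays lay on one side of the 3 WT arrays (16.2%, against 16.7% of all rows and 18.2% of named genes). They were 5 lower in Tg (13.5%, against 9.35% of rows and 9.39% of named genes) and 1 higher (2.7%, against 7.36% and 8.85%). The total shares were at or below the background.

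**Figure D1:**
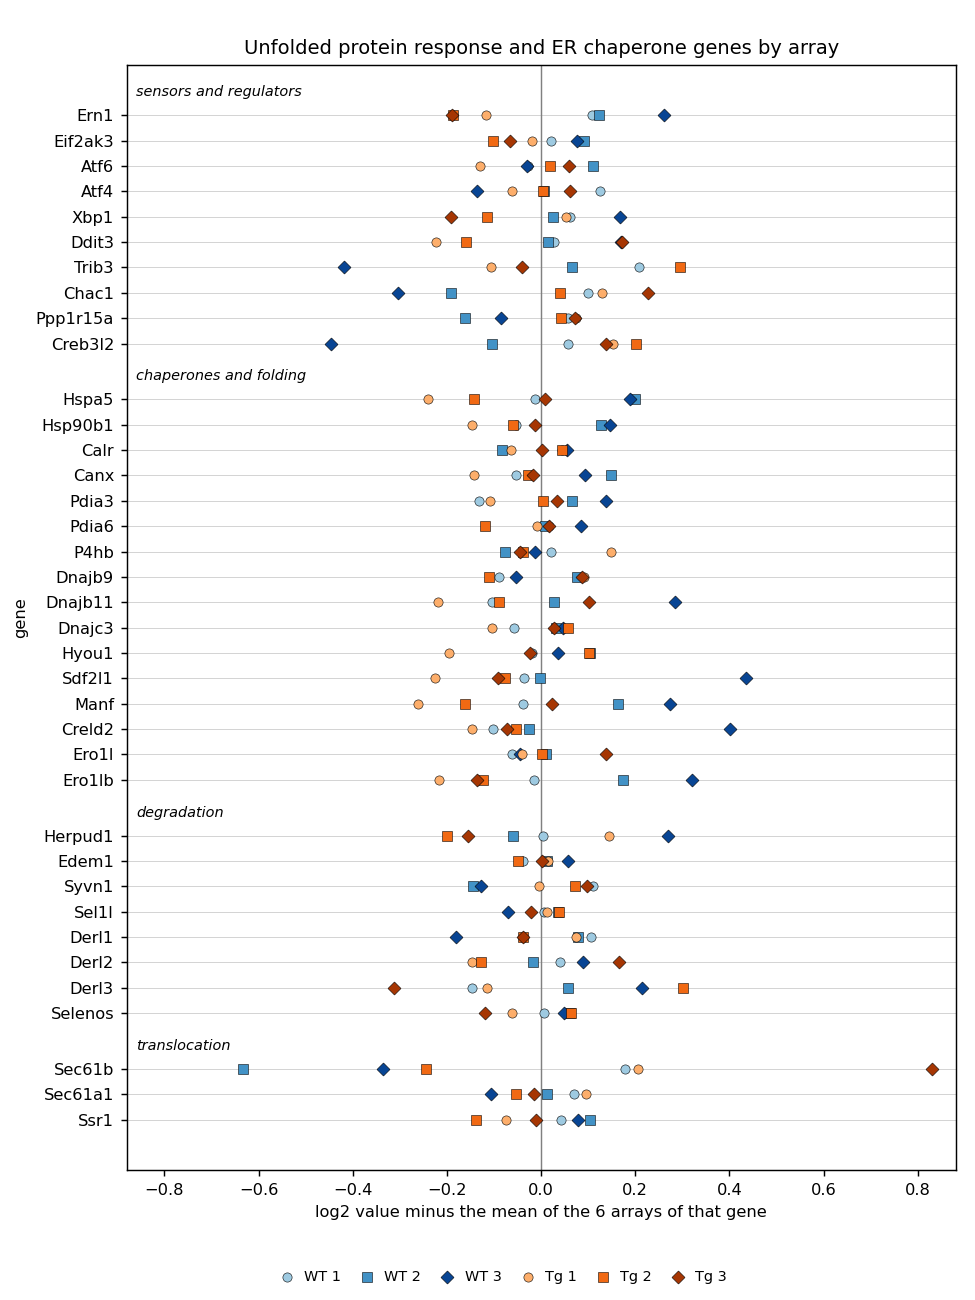
Log2 value of each measured gene on each array (horizontal axis), minus the gene's mean over the 6 arrays, with genes on the vertical axis in 4 roles; blue marks are WT and orange marks Tg. The dark blue diamond of WT 3 is the rightmost mark for Sdf2l1, Creld2, Manf and Dnajb11, while Ern1 and Ero1lb have all Tg marks left of all WT marks.

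Among the sensors, Ern1 had the smallest p of the set. It read 6.70, 6.71 and 6.85 in WT and 6.47, 6.41 and 6.40 in Tg. Every Tg array lay below every WT array, and the gap between the groups was wider than the range within either. The difference was -0.33 ± 0.096, or 1.26-fold higher in WT, with a 95% confidence interval of -0.56 to -0.10 and an adjusted p of 0.37. It kept its sign in all 19 alternative fits, between -0.36 and -0.26, with adjusted p between 0.24 and 0.93, and an unadjusted p under 0.05 in 17 of them.

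The PERK gene Eif2ak3 also read lower in Tg on every array, by much less. Its values were 6.57, 6.64 and 6.62 in WT and 6.53, 6.44 and 6.48 in Tg, a difference of -0.13 ± 0.089 (adjusted p = 0.66). The gap between the lowest WT and the highest Tg array was narrow, and the difference was -0.060 after median centring of the arrays. Atf6, the gene of the third sensor, overlapped between the groups. It read 8.54, 8.67 and 8.53 in WT and 8.43, 8.58 and 8.62 in Tg, a difference of -0.035 with an interval of -0.28 to 0.21, and it turned to 0.030 with median centring.

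The mRNA that IRE1 splices, Xbp1, read 8.42, 8.39 and 8.53 in WT and 8.41, 8.25 and 8.17 in Tg (-0.17 ± 0.11, adjusted p = 0.63). Tg 1 lay among the WT arrays, so the groups overlapped. Atf4, downstream of PERK, had nearly the same mean in both groups. Its arrays read 6.72, 6.60 and 6.46 in WT and 6.53, 6.60 and 6.65 in Tg, a difference of 0.0026 with an interval of -0.26 to 0.26, and its sign changed without WT 3 (-0.065). Ddit3, which codes for the ATF4 target and cell death factor CHOP, read 6.23, 6.22 and 6.37 in WT. In Tg it read 5.98, 6.04 and 6.37, with Tg 3 level with the highest WT array (-0.14 ± 0.13). The difference was -0.26 without Tg 3, -0.065 without Tg 1 and -0.092 without WT 3.

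The further targets of the PERK arm had means above WT, with overlap. Chac1, a glutathione-degrading enzyme, differed by 0.26 ± 0.13 (adjusted p = 0.55), and WT 1 at 4.94 lay among Tg arrays of 4.88 to 5.07. Ppp1r15a, the phosphatase subunit that reverses eIF2 phosphorylation, differed by 0.13 ± 0.10, and the pseudokinase gene Trib3 by 0.097 ± 0.20. Without Tg 2 the difference of Trib3 was -0.026, and with the epididymis covariate it was 0.018. Together with Atf4 and Ddit3, the genes of this arm differed by -0.14 to 0.26.

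Creb3l2, an ER membrane transcription factor of the ATF6 kind, was the only gene of the set with every Tg array above every WT array. It read 8.26, 8.10 and 7.75 in WT and 8.35, 8.40 and 8.34 in Tg. The Tg arrays were tightly grouped and the WT arrays were not. The difference was 0.33 ± 0.15 (1.26-fold, adjusted p = 0.51). WT 3 was the lowest array, and without it the difference was 0.19 (adjusted p = 0.75).

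Of the 10 sensors and regulators 5 had a difference below 0 and 5 above, with a median of -0.016, which was 0.049 with median centring. All rows together had a median of -0.014, or 0.051 with median centring. At an unadjusted p under 0.05 there was 1 gene of this role (10%, against 10.3% of all rows).

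**Figure D2:**
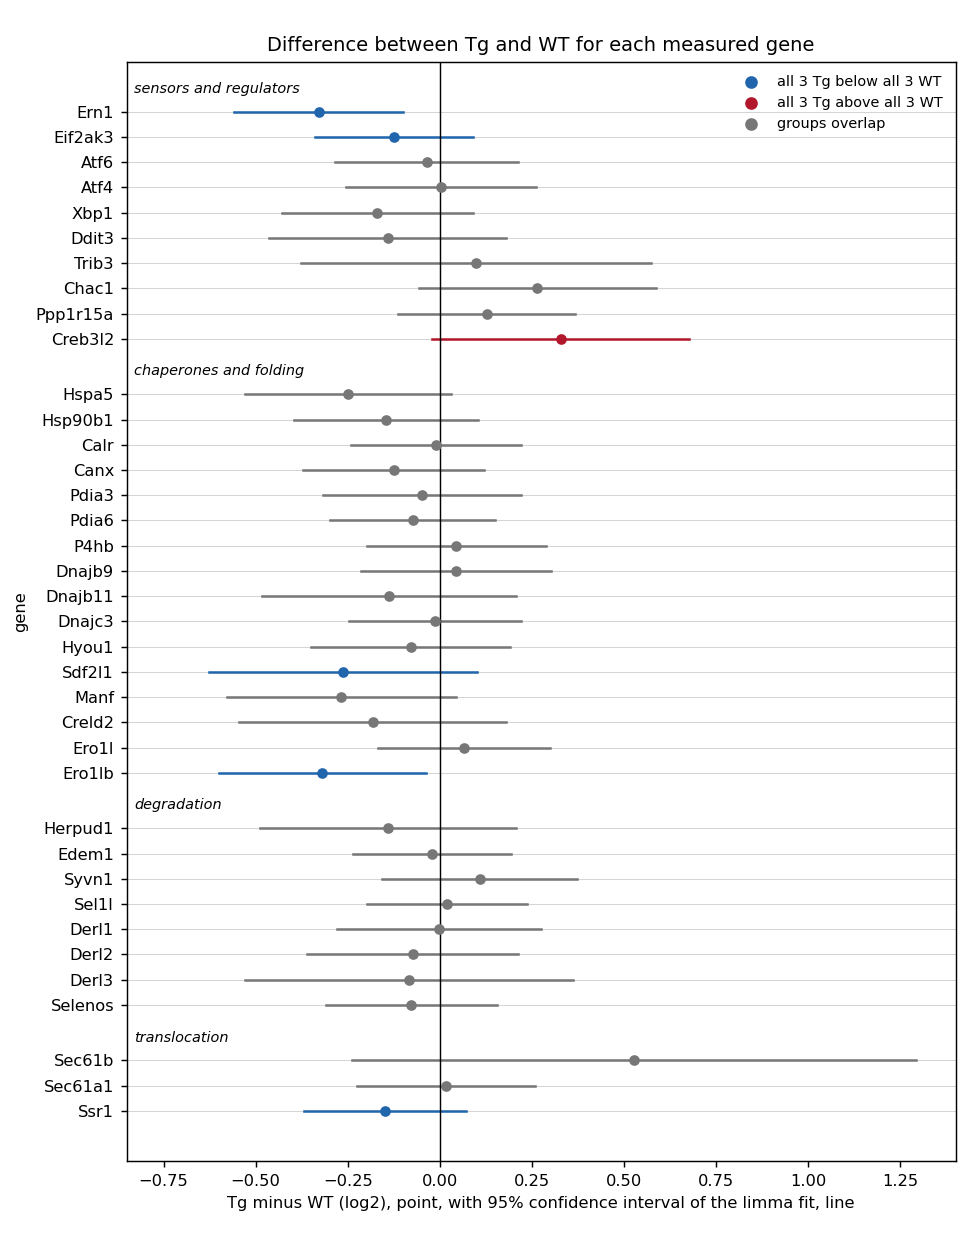
Difference between Tg and WT of each measured gene (log2, horizontal axis) with the 95% confidence interval of the limma fit, genes on the vertical axis by role, blue or red where the groups do not overlap. The intervals of Ern1 and Ero1lb alone exclude 0, before any adjustment, and Sec61b has the widest interval.

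Chaperone and folding genes read slightly lower in Tg as a group, with 13 of 16 differences below 0 and a median of -0.10. The share below 0 was 81.2%, against 52.8% of all rows and 50% of named genes. That background includes dimmer rows, while all 16 genes lay above the median signal. Rows above the median signal had a median difference of -0.039, against -0.014 of all rows, and their share below 0 is not given. The 3 genes above 0 were P4hb, Dnajb9 and Ero1l, at 0.045, 0.044 and 0.065. With median centring 10 of 16 were below 0, with a median of -0.037. The median of all rows moved as well, from -0.014 to 0.051. A single gene of this role, Ero1lb, had an unadjusted p under 0.05 (6.2%, against 10.3% of all rows). The groups did not overlap in 2, Ero1lb and Sdf2l1 (12.5%, against 16.7%).

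Hspa5, the gene of BiP, the Hsp70 chaperone that holds the 3 sensors inactive, read 8.00, 8.22 and 8.21 in WT and 7.78, 7.88 and 8.03 in Tg. Tg 3 lay just above WT 1, so the groups touched. The difference was -0.25 ± 0.12 (1.19-fold higher in WT), with an interval of -0.53 to 0.03 and an adjusted p of 0.52. With 1 array left out the difference was -0.32 to -0.19. It was -0.10 with WT 1, its lowest WT array, Tg 1 and Tg 3 alone. The unadjusted limma p of Hspa5 was 0.036 with an intensity trend and 0.038 with a trend and robust variances. Without WT 1 it was 0.045. The adjusted p in these fits was 0.41, 0.42 and 0.40, and in the other fits the unadjusted p was above 0.05. Hsp90b1, the ER form of HSP90, differed by -0.15 ± 0.10, with Tg 3 at 10.60 above WT 1 at 10.56. Hyou1, a nucleotide exchange factor for BiP, differed by -0.079 ± 0.11. The difference of Hyou1 was -0.15 without Tg 2 and -0.14 with the epididymis covariate, but -0.0008 without Tg 1.

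The partners of BiP were mixed. Sdf2l1, which works in a complex with BiP, read 6.64, 6.68 and 7.11 in WT and 6.46, 6.60 and 6.59 in Tg. All Tg arrays lay below all WT arrays, but WT 3 stood far above the other pair of WT arrays. The difference was -0.26 ± 0.15 (adjusted p = 0.59), and -0.11 without WT 3. Dnajb11, the J-domain partner of that complex, differed by -0.14 ± 0.14, again with WT 3 highest at 8.28. Dnajc3 and Dnajb9, J-domain proteins too, differed by -0.013 ± 0.097 and 0.044 ± 0.11.

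Manf and Creld2 are small ER proteins known as targets of the response. Manf read 3.62, 3.83 and 3.94 in WT and 3.40, 3.50 and 3.69 in Tg, a difference of -0.27 ± 0.13 (adjusted p = 0.54) with Tg 3 above WT 1. Creld2 read 7.63, 7.71 and 8.13 in WT and 7.58, 7.68 and 7.66 in Tg (-0.18 ± 0.15). In Creld2, as in Sdf2l1, WT 3 alone stood far from the other arrays.

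Calnexin and calreticulin, the lectin chaperones that bind sugar-bearing proteins, showed no separation. Calr lay between 10.74 and 10.88 on all 6 arrays, with a difference of -0.0105 and an interval of -0.24 to 0.22. Canx differed by -0.13 ± 0.10, with groups that overlapped. Their partner Pdia3 differed by -0.048 ± 0.11.

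Of the enzymes that form disulfide bonds, the groups were apart in 1. Ero1lb, the oxidase known from endocrine and other secretory cells, read 6.23, 6.42 and 6.57 in WT and 6.03, 6.12 and 6.11 in Tg. All Tg arrays lay below all WT arrays, and the WT arrays were the more spread. The difference was -0.32 ± 0.12 (1.25-fold higher in WT), with an interval of -0.60 to -0.04 and an adjusted p of 0.45. Its sign held in all 19 alternatives, from -0.41 to -0.16, with adjusted p from 0.28 to 0.95. Its unadjusted p was under 0.05 in 10 of them, and not with cyclic loess, with median centring, or without any single array other than WT 1. Its sister oxidase Ero1l differed by 0.065 ± 0.097, and the disulfide isomerases Pdia6 and P4hb by -0.074 ± 0.094 and 0.045 ± 0.10. The shared row of Pdia4 and Mir704, outside the rule, differed by -0.19 ± 0.13.

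WT 3 was the highest array in 9 of the 16 chaperone and folding genes (56.2%), against 19.0% of all named genes, and Tg 1 the lowest in 10 (62.5%, against 18.7%). Among sensors and regulators these arrays took that place in 2 of 10 genes each. Averaged over the 16 genes, the deviation from the 6-array mean was -0.043, 0.059 and 0.15 in the WT arrays in order. In the Tg arrays it was -0.12, -0.050 and 0.0024, which overlaps with WT 1. Without WT 3 the chaperone median was -0.040, and without Tg 2 it was -0.135. Without both WT 3 and Tg 1, a comparison added after seeing the data, it was -0.0096 with 10 of 16 below 0. Those arrays were left out as the highest and the lowest for these genes, which by construction brings the median toward 0.

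Markers of secretory and immune cells differed between these arrays too. The mean of 12 plasma cell and B cell markers was 4.89, 5.52 and 5.75 in the WT arrays in order, and 5.24, 4.65 and 4.71 in the Tg arrays. The difference was below 0 in 11 of the 12, with 0 of the 12 apart (against 16.7% of all rows), and Jchain, the antibody joining chain, read 9.21 in WT 3. Dim defining markers such as Mzb1 and Tnfrsf17 read 2.77 to 4.22 and 1.74 to 2.81. The mean of 12 macrophage markers was 9.78 to 9.89 in WT and 9.59 to 9.63 in Tg, with 11 of 12 below 0 and 10 of these apart (83.3%, against 9.35% of all rows). The remaining marker, Cd163, went the other way, at 0.64 ± 0.14 (adjusted p = 0.33 in limma), with groups apart. The 8 mast cell markers all had groups apart and differences below 0 (100%, against 9.35%), at means of 5.86 to 6.90 in WT and 4.93 to 5.43 in Tg. Among 10 fibroblast markers, genes of another secretory cell, 4 were below 0 and the means overlapped, at 9.49 to 9.75 in WT and 9.55 to 9.74 in Tg. All 8 endothelial markers had differences above 0 (median 0.33) and were lowest in WT 3, with a mean of 7.56 there and 7.92 to 8.34 elsewhere. In 2 of them the groups were apart (25%, against 7.36% of all rows apart and higher in Tg). All 10 adipocyte markers had differences above 0 as well (median 0.36), with 6 apart (60%, against 7.36%), and 9 of them were lowest in WT 3. The epididymal genes Spink8 and Defb42 were highest in WT 3 too, at 8.09 and 5.67. Defb42 was nearly as high in Tg 2, at 5.64, and read 4.37 in WT 2, while 11 of 16 epididymis markers were highest in Tg 2. The part of these cells and of epididymal tissue in the chaperone values was not tested.

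**Figure D3:**
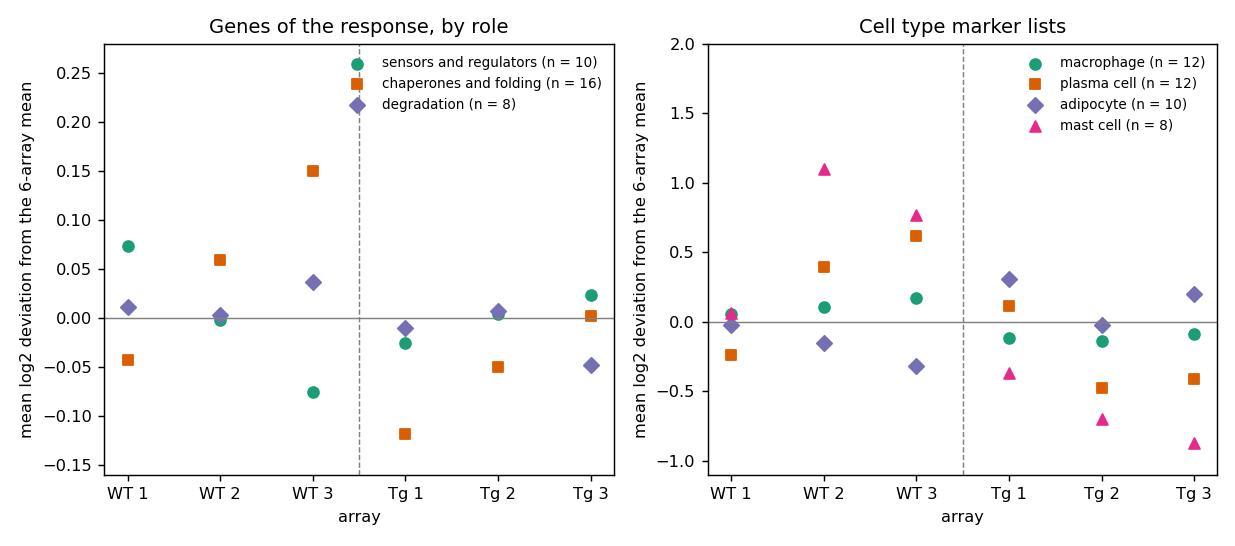
Mean deviation of gene groups from their 6-array mean (log2, vertical axis) on each array (horizontal axis), for 3 roles on the left and 4 cell marker lists on the right, on different scales. Chaperones are highest in WT 3 at 0.15 and lowest in Tg 1 at -0.12, while plasma cell markers are highest in WT 3 and lowest in Tg 2.

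Degradation factors were centred near 0. Of 8 genes, 6 had a difference below 0, with a median of -0.048. It became 0.018 with median centring, which moved the median of all rows from -0.014 to 0.051. When all rows of a gene were averaged it was 0.055. The median was -0.015 without Tg 2, -0.0060 without Tg 3 with 4 of 8 below 0, and -0.021 with the epididymis covariate. In limma 0 of the 8 passed or had an unadjusted p under 0.05, and 0 had groups apart. Herpud1, the scaffold of the degradation complex that carries the ERSE-II shown above, ranged from 8.41 to 8.74 in WT and from 8.26 to 8.61 in Tg (-0.14 ± 0.14). Tg 1 was its second highest array, unlike in most chaperones.

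The ubiquitin ligase HRD1, coded by Syvn1, differed by 0.11 ± 0.11, the one ERSE gene of the set above 0. Its partner Sel1l lay within 8.81 to 8.91 on all arrays (0.019 ± 0.090). Edem1, which delivers sugar-bearing clients, lay within 8.61 to 8.72 (-0.021 ± 0.090). The membrane proteins Derl1 and Derl2 differed by -0.0029 ± 0.12 and -0.074 ± 0.12, and Selenos, which anchors the extraction ATPase, by -0.078 ± 0.096. Derl3, a derlin known from plasma cells and other secretory cells, was the most variable of the role, with its highest value of 4.53 in Tg 2 and its lowest of 3.92 in Tg 3 (-0.084 ± 0.19). Tg 2 was the array with the highest epididymis markers and the lowest plasma cell markers. The plasma cell marker mean of Tg 3 was close to it, at 4.715 against 4.649. A link of either marker list to Derl3 was not tested. The difference of Derl3 was -0.26 without Tg 2 and -0.23 with the epididymis covariate, but 0.051 without Tg 3.

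In the translocation channel, Ssr1, a subunit of the translocon-associated complex, read 8.87, 8.94 and 8.91 in WT and 8.76, 8.69 and 8.82 in Tg. The groups did not overlap, and the difference was -0.15 ± 0.091 (adjusted p = 0.61). A second, dimmer row of Ssr1 differed by 0.23 ± 0.34, and the difference of the mean of both rows was 0.042. Sec61a1, the pore subunit, differed by 0.017 ± 0.10. Sec61b, a small channel subunit, read 1.38 to 2.85, near or below the array medians, with a difference of 0.53 ± 0.32 and an interval of -0.24 to 1.29. Its difference was 0.78 without Tg 2 and 0.76 with the epididymis covariate, with unadjusted limma p of 0.044 and 0.027 (adjusted p = 0.53 and 0.45), but 0.24 without Tg 3 and 0.34 without WT 2.

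Set against the promoter elements, the 12 measured genes with ERSE or ERSE-II had 11 differences below 0 and a median of -0.13. The 20 measured genes with a window and neither element had 10 below 0 and a median of -0.0093. Of these 12, 9 are chaperones or folding enzymes, so element and role overlap. The elements did not mark out the separated genes: Ero1lb holds one, and Ern1, Eif2ak3, Creb3l2, Sdf2l1 and Ssr1 had no match in the window. With median centring the medians were -0.067 and 0.056, with 9 of 12 and 8 of 20 below 0, and that of all rows was 0.051. Without WT 3 they were -0.036 and -0.029, and with WT 1, Tg 1 and Tg 3 alone -0.027 and -0.020. Without both WT 3 and Tg 1, left out for their chaperone values, the medians were -0.032 and -0.012. In that fit 6 of 12 and 13 of 20 were below 0. These are descriptions of small differences, with no test.

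**Figure D4:**
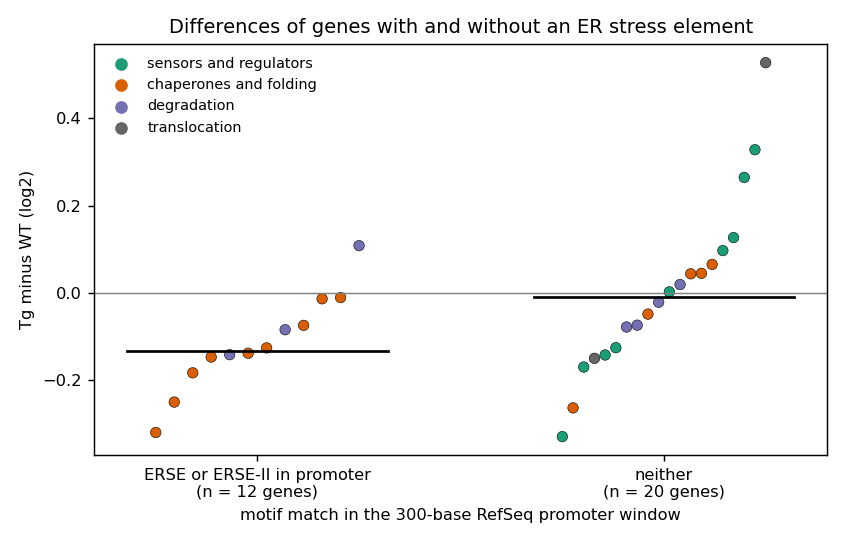
Difference between Tg and WT (log2, vertical axis) of each measured gene with a promoter window, split on the horizontal axis by a match to ERSE or ERSE-II, coloured by role, with a bar at the median. The medians are -0.13 and -0.0093, and the widest spread, with both Ern1 and Sec61b, is among the genes without a match.

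Other genes of the ER pathways were taken from 5 lists, of which 94 of 101 genes were measured. No gene passed the threshold in limma (0 of 94). At an unadjusted p under 0.05 there were 12 (12.8%, against 10.3% of all rows), 3 lower and 9 higher in Tg. The groups did not overlap in 31 genes (33.0%, against 16.7% of all rows), 13 lower and 18 higher.

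Of 20 further regulators 3 had an unadjusted p under 0.05, all higher (15%, against 10.3% of all rows). The groups were apart in 10 (50%, against 16.7%), with 5 in each direction. Creb3l1, the closest relative of Creb3l2, read 7.14, 6.61 and 6.68 in WT and 7.35, 7.92 and 7.56 in Tg. Every Tg array lay above every WT array, as in Creb3l2. The difference was 0.80 ± 0.20 (1.74-fold, adjusted p = 0.35), 0.65 without Tg 2, its highest array, and 0.31 with WT 1, Tg 1 and Tg 3 alone. Nupr1, a stress-induced nuclear protein gene, differed by 0.30 ± 0.094 (adjusted p = 0.40), with groups apart.

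Of 21 further folding genes 15 had a difference below 0, with a median of -0.042, and 2 had an unadjusted p under 0.05, both higher (9.5%, against 10.3% of all rows). Cdnf, the sister gene of Manf, read 4.76, 4.44 and 4.38 in WT and 4.95, 4.94 and 4.94 in Tg, a difference of 0.42 ± 0.13 (adjusted p = 0.38), against -0.27 for Manf. The prolyl isomerase gene Fkbp7 differed by 0.28 ± 0.10 with groups apart.

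Among 17 degradation genes Edem2, a relative of Edem1, read lower on every Tg array (-0.33 ± 0.11, adjusted p = 0.42), and the ubiquitin-conjugating enzyme gene Ube2j2 differed by -0.27 ± 0.15 with overlap (-0.15 without Tg 1 and -0.18 without WT 3). Edem2 was the one gene of that list at an unadjusted p under 0.05 (5.9%, against 10.3% of all rows).

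Of 18 translocation and signal peptide genes 1 had an unadjusted p under 0.05 (5.6%, against 10.3% of all rows). It was Sec11c, a catalytic subunit of the signal peptidase, at 8.20, 8.23 and 8.26 in WT and 7.65, 8.08 and 7.79 in Tg (-0.39 ± 0.13, adjusted p = 0.41). The groups were apart and the WT arrays nearly equal. The other catalytic subunit, Sec11a, differed by -0.21 ± 0.097, with groups apart as well.

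The 18 genes known as ATF4 targets in amino acid metabolism and stress had 5 at an unadjusted p under 0.05, 4 higher and 1 lower (27.8%, against 10.3% of all rows), and 7 with groups apart (38.9%, against 16.7%). Phgdh, the serine synthesis enzyme, differed by 1.01 ± 0.12 (adjusted p = 0.26), and Slc7a11, the cystine transporter, by -0.99 ± 0.18 (adjusted p = 0.33). Slc7a11 read 3.82 to 3.96 in WT and 2.60 to 3.30 in Tg, and the mean of its rows differed by -0.52. The median of the list was 0.076, with 8 genes below 0 and 10 above.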

How the data were processed

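Each of the 6 arrays was 1 mouse, 3 WT and 3 Tg, grouped by title. The deposited values are log2 intensities, made by the authors with RMA, which normalizes between arrays and compresses differences at low signal; RMA and limma are named per the submitters' processing notes. The sources used here give no setting, version or build for them. Of 41345 rows, 23521 name 1 gene, 1814 several and 16010 none. Array medians lay between 2.64 and 2.75. The number of arrays limits the precision.

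The 2 groups were compared by moderated 2-sided tests of limma 3.58.1 (R 4.3.3; no covariate, no filter), with Benjamini-Hochberg adjustment over all rows and a threshold of 0.05. The procedure was tested on simulated data with changes larger than any in the set, so that test does not cover differences as small as these. Genes, lists, roles and tests were chosen with earlier results of these data known. Genes are given by array where the groups do not overlap or the unadjusted p is under 0.05, as are the 3 sensors, Atf4, Xbp1, Ddit3 and Hspa5. From each further list the 2 genes with the smallest p are named, and Creld2, Manf, Chac1 and Derl3 were picked out after their values were seen. Same-numbered arrays did not deviate together (correlations of -0.04, 0.01 and -0.04), so the numbers were not taken as pairs. Alternatives changed the normalization, the filter, the variance model, the rows of a gene and the arrays used.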

Additional observations from a re-analysis of the deposited data

How the results depend on the processing

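In every alternative run, 0 of the genes described and 0 rows passed the threshold, also at an adjusted p of 0.10. The signs of Ern1, Eif2ak3, Creb3l2, Sdf2l1 and Ero1lb held in all 19 alternatives, and that of Ssr1 in 18, with 0.042 over the mean of its rows. The count at an unadjusted p under 0.05, 2 as reported, was 4 with an intensity trend and 4 with a trend and robust variances. All rows at such a p were then 11% and 10.9%, against 10.3% as reported. Without both WT 3 and Tg 1 the count was 0 (6.78% of all rows). Those arrays were left out for their chaperone values, which draws medians toward 0 by construction. The fit of WT 1, Tg 1 and Tg 3 alone assumed that its 1 WT array varies like the Tg arrays. These 3 arrays had the lowest epididymis marker means, but Tg 1 read 3.22 for the epididymal gene Gpx5, against 0.95 in WT 1 and 0.97 in Tg 3. The count was 1 to 6 with 1 array left out (7.51% to 12.3% of all rows), the 6 without WT 1. With the epididymis covariate it was 3 (9.96%). A count of 2 was not always Ern1 and Ero1lb: Ero1lb gave way to Chac1 with cyclic loess, to Creb3l2 with median centring and to Sec61b without Tg 2. Genes with groups apart were 6 as reported and 7 to 16 with 1 array left out. Such genes were 21 with WT 1, Tg 1 and Tg 3 alone and 10 without WT 3 and Tg 1. Smaller groups separate more readily in any row. No share of all rows apart is given for these settings, so the higher counts are not a result about this set.

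The median over all 37 genes, -0.074 as reported, was -0.036 with quantile normalization, -0.039 with cyclic loess, -0.0086 with median centring, -0.013 over the mean of a gene's rows, -0.030 with WT 1, Tg 1 and Tg 3 alone and -0.0129 without WT 3 and Tg 1, and -0.084 to -0.034 with 1 array left out. The sensor median was 0.049 with median centring and -0.0765 to 0.028 with 1 array left out. For chaperones it was -0.019 with WT 1, Tg 1 and Tg 3 alone, -0.0096 without WT 3 and Tg 1 and -0.16 to -0.040 with 1 array left out. For degradation it was -0.0071 with quantile normalization, 0.018 with median centring, 0.055 over the mean of rows, -0.021 with the epididymis covariate, -0.012 without WT 3 and Tg 1, and -0.059 to -0.0060 with 1 array left out; for translocation it was -0.0325 to 0.056 with 1 array left out. Median centring moved the difference of every row by the same amount, and the median of all rows from -0.014 to 0.051. The cause of the other shifts was not tested. Of all rows at an unadjusted p under 0.05, 43.0% were higher in Tg as deposited, 54.4% with quantile normalization and 64.7% with median centring, and the genes below 0 numbered 25, 23 and 19 of 37.

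With the replicate number as a block, 2 genes had an unadjusted p under 0.05, as without it, and 4034 rows against 4263. With the block Fkbp7 and Edem2 no longer had an unadjusted p under 0.05 (0.069 and 0.061), and 0 rows passed the threshold, as without it. Over all rows, 2804 had such a p without WT 3 and Tg 1. RMA compresses rows of low signal such as Sec61b.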

Other observations

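Of the genes described, 6 had a second, dimmer row on the array (Ero1l, Edem1, Derl2, Selenos, Sec61b and Ssr1). All 6 second rows had a difference above 0, from 0.15 to 0.45, against 59.0% of 1341 such rows over all genes. Tg 2 was the highest array in 5 of the 6 and in 31.2% of the 1341. In Edem1 the second row read 2.61, 2.23 and 2.61 in WT and 2.64, 3.49 and 2.68 in Tg, with groups apart, while the main row differed by -0.021. The second row of Derl2 was apart as well, at 0.33 ± 0.15. None of the 6 had an unadjusted p under 0.05 in limma, and the smallest adjusted p was 0.52. These rows are near or below the median signal of the array, apart from those of Ero1l and Ssr1, and were not used for the values above.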
